A study of Homo sapiens with 9 samples.

Results

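The genes described here encode the proteins of the human cytosolic ribosome. They were chosen by name: a gene belonged to the family if its symbol was RPL or RPS followed by a number, with or without a closing A or X, or was RPLP0, RPLP1, RPLP2 or RPSA. Pseudogenes and paralogs whose names end in L or L1 were left out. This gave 77 of the 57338 genes in the deposited table, 46 of the large subunit and 31 of the small subunit. All 77 were found in the table and in the GENCODE 29 annotation.

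Protamines are small, arginine-rich nuclear proteins that pack the DNA of sperm, and the study asked what they do to gene expression in a somatic cell. HEK293T cells, a line of human embryonic kidney origin, were transfected with an empty vector, with human PRM1 joined to EGFP (hPRM1) or with human PRM2 joined to EGFP (hPRM2). On day 3, cells with a strong EGFP signal were collected by sorting and total RNA was isolated. Each of the 3 groups had 3 libraries of the 3′ ends of polyadenylated RNA. Per the labels all groups share the cell line and the sort, so each library should stand for the brightest transfected cells after transient transfection, which 3 of them did not bear out. The labels do not say that the 3 libraries of a group came from separate cultures, so the p-values measure the spread between these libraries, which may be technical.

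A ribosome is built from RNA and about equal numbers of copies of each of its proteins, so the cell has to keep the output of many unlinked genes balanced. The messenger RNAs of these genes typically begin with a cytosine followed by a run of pyrimidines, the 5′ terminal oligopyrimidine (TOP) tract, through which their translation responds to growth signals. They are short, stable and among the most abundant messengers of a dividing cell. In the bone marrow, a deficit of a single ribosomal protein can cause Diamond-Blackfan anaemia, in which red cell precursors fail.

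The starts of 6 of the genes are shown because the TOP tract is the sequence feature by which the family is best known. Each line gives 30 bases of the RefSeq promoter entry (GRCh38.p14), with the 10 bases before the annotated start, the start itself and the 19 bases after it, 5′ to 3′ on the strand of the gene, with CTTT in capitals. RPLP0 and RPS6 are the usual markers of the family, RPL39 and RPL36A had the largest decreases in the libraries labelled hPRM1, RPL28 had the smallest, and RPL11 is among the genes with almost no signal in the control libraries. RPL11 has a pair of entries, of which the one with CTTT is shown, and the window of RPLP0 has none.
RPLP0 (chr12:120201092-120201121, minus strand): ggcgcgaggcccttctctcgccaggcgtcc
RPS6 (chr9:19380217-19380246, minus strand): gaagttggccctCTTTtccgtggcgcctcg
RPL39 (chrX:119791611-119791640, minus strand): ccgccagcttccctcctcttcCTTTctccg
RPL36A (chrX:101391001-101391030, plus strand): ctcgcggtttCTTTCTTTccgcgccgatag
RPL28 (chr19:55385922-55385951, plus strand): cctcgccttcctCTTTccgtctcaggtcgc
RPL11 (chr1:23691796-23691825, plus strand): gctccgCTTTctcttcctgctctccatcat

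Of the 77 genes, 62 had a promoter entry, with 77 windows in all since some genes have several. CTTT occurred on the strand of the gene in 49 of the 77 windows (63.64%), against 12.35% of the 35039 windows of the other genes in the table. On the opposite strand, CTTT occurred in 5.195% and 9.649% of the same windows. The base at the annotated start was a cytosine in 66.23% of the family's windows and in 14.58% of the others. A match describes these letters in this window only. The 47 tested genes with CTTT had a median log2 difference of -3.29 from the empty vector in the libraries labelled hPRM1, and the 14 tested genes without it one of -2.74.

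Before the results, some facts of the series bear on every value. Reads on genes, estimated from the spacing of low values, were 7850000 to 10800000 per empty vector library, 4220000 to 5820000 per library labelled hPRM1 and 1270000 to 2660000 per hPRM2 library. PRM2 reached 36130 to 71224 RPKM (reads scaled to the length of the gene and the total of the library) in the hPRM2 libraries and was listed at 0 in the other 6. PRM1 was listed at 0 in all 9 libraries, including those labelled hPRM1, which are therefore named by their label. The library numbers of these 3 run in a different series from those of the remaining 6, so for them the batch of libraries and the transfected vector cannot be told apart.

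The libraries labelled hPRM1 held high levels of blood cell genes and lacked most of the markers of HEK293T cells. A list of 8 red cell genes summed to 2060240 to 2266410 RPKM there and to 3.09 to 18.2 RPKM in the empty vector, where AHSP, ALAS2, CA1 and HBB were at 0. The globin genes HBA1, HBA2 and HBB alone held 83.2% to 86.6% of the summed RPKM of these libraries. A list of 8 neutrophil and monocyte genes summed to 5845 to 6811 RPKM against 0.284 to 3.02 in the empty vector, 5 lymphocyte genes to 393 to 451 RPKM against 0, 2 genes of all leukocytes to 324 to 462 RPKM against 0.434 to 2.40, and 2 platelet genes to 299 to 478 RPKM against 0 to 4.45. All genes of these lists were above 0 in all 3 libraries labelled hPRM1. The 8 HEK293T markers summed to 766 to 917 RPKM in the empty vector and 598 to 1844 RPKM in hPRM2. They summed to 0.933 to 3.24 RPKM in the libraries labelled hPRM1. CDKN2A held most of these sums, at 545, 589 and 769 RPKM in the empty vector and 0.762, 3.24 and 1.38 RPKM in the libraries labelled hPRM1. In the latter, IGF2BP1, LIN28B, NEFL, NEFM and PAX2 were at 0. Of these, NEFL (0, 0.135 and 1.13 RPKM) and PAX2 (1.52, 3.00 and 1.34 RPKM) were already low in the empty vector. The labels may thus not name what these 3 libraries hold, and every difference given for them describes libraries with this content. The part of this content in the differences was not tested. In bulk RNA, fewer cells of a type and less RNA per cell cannot be told apart.

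In the control cells the family was abundant and uneven. Its median level was 3089.9, 2983 and 3464 RPKM in empty vector replicates 1, 2 and 3, and its summed RPKM made up 35.2% to 37.8% of that of all protein-coding genes. The highest small subunit gene was RPS29 at 71244, 67550.1 and 71608 RPKM, followed by RPS27 at 18503, 15017 and 17584 RPKM and RPS18 at 16195, 14255 and 17056 RPKM. In the large subunit the highest were RPL39 at 35284, 32754 and 36809 RPKM, RPL41 at 24522, 22484 and 29804 RPKM and RPL27 at 21724, 21582 and 21668 RPKM. RPS29, RPL39 and RPL41 encode some of the smallest proteins of the ribosome. The libraries are read from the 3′ end, and RPKM divides each count by the length of the gene. The lengths used are not given, and the part of this division in the high levels was not tested. Each gene was given a single annotated transcript, preferring those marked as principal and then the longest coding sequence. Over the 77 genes the level and the length of this transcript had a Spearman rho of -0.33 (Pearson's r = -0.15). This is a description across genes that share the same libraries.

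A group of 7 genes had an empty vector mean under 100 RPKM, far below the others. RPS26, a component of the mRNA exit region and a Diamond-Blackfan gene, was listed at 0, 0.517 and 0.409 RPKM. RPL11, which with RPL5 and 5S RNA forms the particle that stabilises p53 when ribosome assembly fails, was at 9.002, 3.07 and 0.663 RPKM. RPS7 was at 6.08, 8.65 and 36.4 RPKM and RPS10 at 58.2, 3.01 and 49.6 RPKM. RPL29 (33.5, 37.02 and 45.6 RPKM) and RPL26 (49.2, 73.6 and 122 RPKM) belonged to this group too. The read-through locus RPS10-NUDT3, which contains the RPS10 exons, was listed at 1003, 811 and 1213 RPKM in the same libraries. For RPS26 and RPS7, the pseudogenes named after them held more RPKM than the genes themselves, at 21.8, 2.54 and 57.5 RPKM and at 105, 196 and 116 RPKM. Whether reads of near-identical copies were split between the gene and its pseudogenes was not tested, and the values of these 7 genes are uncertain for that reason.

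The family was lower in the libraries labelled hPRM1 than in the empty vector. Of the 76 genes with enough signal to test (RPS26 had too little), 71 fell and 0 rose by at least 2-fold at an adjusted p of at most 0.05 (limma), where 62.5% of all 13588 genes tested fell and 12.9% rose. The median log2 difference of the 76 genes was -3.35, against -1.72 over all genes tested. In 72 of the 76 genes every library labelled hPRM1 lay below every empty vector library, as it did for 66.4% of all genes tested. The summed RPKM of the family made up 1.82% to 2.24% of that of all protein-coding genes, and 15.4% to 16.2% once HBA1, HBA2 and HBB were left out of the sum.

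How much of this fall remains depends on the scale on which the libraries are compared. After median-of-ratios rescaling, which sets the typical gene of each library to the same level, 35 of the 76 genes fell and 4 rose, the family's median was -0.84 and that of all genes 0.14, with 25.1% of all genes lower and 32.6% higher. With the globin genes left out of the total to which each library is scaled, an alternative chosen after the data were seen, 31 genes fell and 5 rose, where 24% of all genes fell and 36.5% rose. After quantile normalization 43 fell and 2 rose, where 32.3% of all genes fell and 25.6% rose. The 35, the 31 and the 43 genes were all among the 71. In 22 genes the sign of the difference turned from negative to positive after median-of-ratios rescaling.

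**Figure D1:**
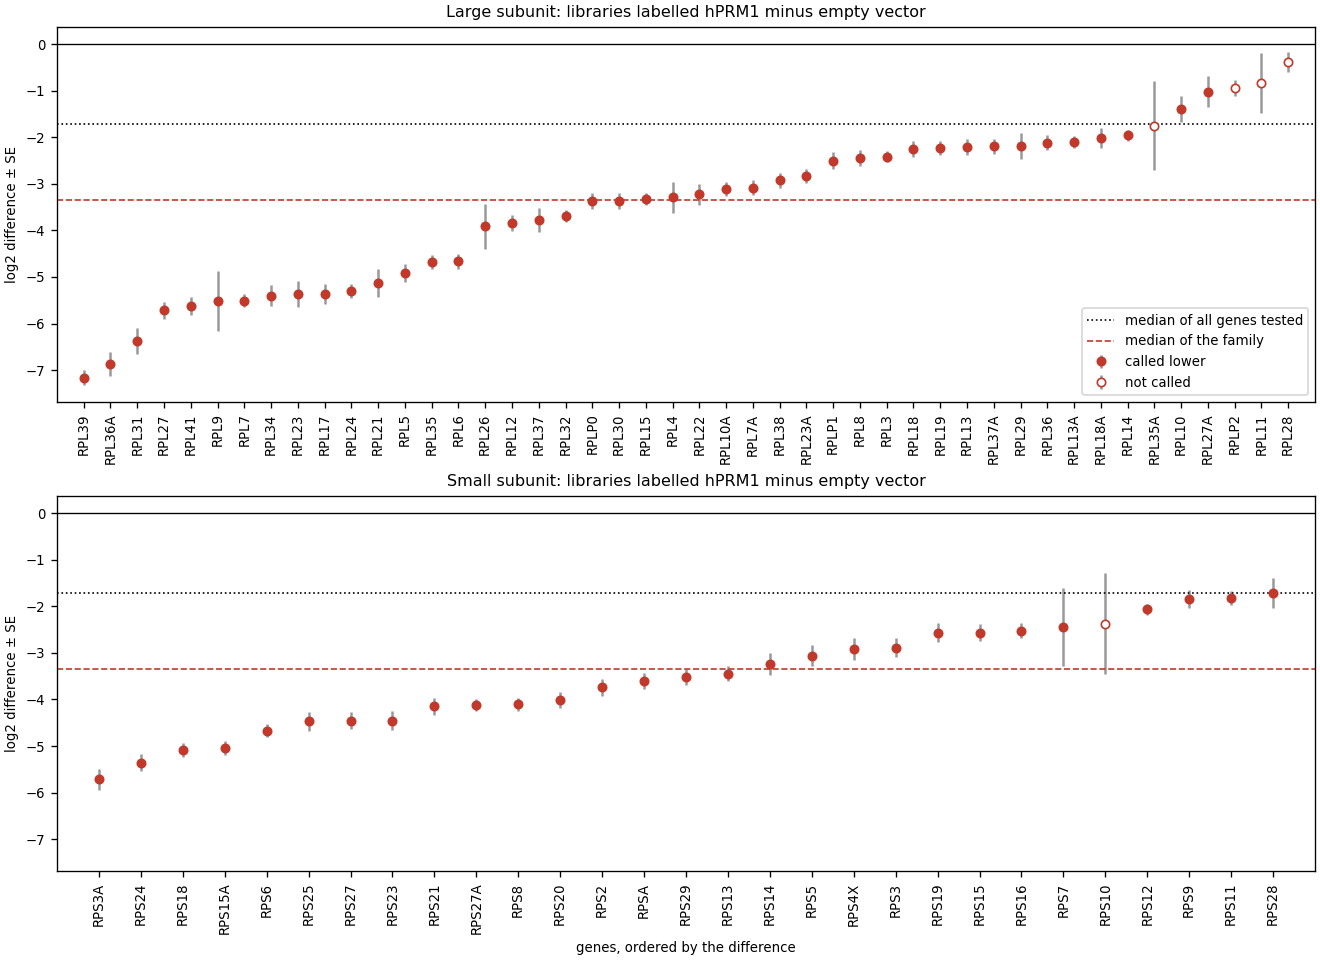
Log2 difference from the empty vector in the libraries labelled hPRM1 for 46 large (top) and 29 small subunit genes tested (bottom), ordered by size, with bars of 1 SE from the fit across all genes (3 libraries against 3). Filled points fell by the test and open points were not called, and the family's median of -3.35 (dashed) lies below the median of all genes tested, -1.72 (dotted).

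The 2 marker genes of the family fell. RPLP0, the scaffold of the ribosomal stalk (ENSG00000089157, chromosome 12, 120196686 to 120201235, GRCh38), was at 2413, 2364 and 2967 RPKM in the empty vector and at 215, 297 and 237 RPKM in the libraries labelled hPRM1. Its log2 difference was -3.37 ± 0.18 (SE), adjusted p = 9.58e-06, or 10.3-fold between the means. RPS6, the small subunit protein that is phosphorylated when growth signals are active (ENSG00000137154, chromosome 9, 19375715 to 19380254, GRCh38), went from 4162, 4148 and 4142 RPKM to 151, 155 and 182 RPKM. Its log2 difference was -4.67 ± 0.13 (SE), adjusted p = 2.46e-06, or 25.5-fold. In both genes the groups lay far apart and each group was tight. After median-of-ratios rescaling RPS6 still fell (-2.17), while RPLP0 (-0.86) was no longer past the 2-fold threshold.

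The stalk of the large subunit, which recruits the elongation factors, is made of RPLP0 with copies of RPLP1 and RPLP2, and 2 of its 3 genes fell, a share near the 62.5% of all genes tested. RPLP1 was at 4002, 4016 and 5275 RPKM in the empty vector and at 664, 898 and 775 RPKM in the libraries labelled hPRM1 (log2 difference -2.50 ± 0.18). RPLP2 was at 11980.3, 10827 and 13969 RPKM and at 5189.8, 7348 and 6756 RPKM. Its log2 difference of -0.94 ± 0.17 (SE), adjusted p = 0.00219, did not reach 2-fold, although the groups did not overlap. It did so without empty vector replicate 2 (-1.02) or hPRM1 replicate 2 (-1.04). RPLP2 thus became the highest gene of the family in 2 of the 3 libraries labelled hPRM1. After median-of-ratios rescaling RPLP2 was higher than in the empty vector (1.57), and RPLP1 stood at 0.0048.

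Of the pair that carries 5S RNA, RPL5 fell from 1052, 1214 and 809.8 RPKM to 34.1, 30.2 and 33.02 RPKM, with a log2 difference of -4.92 ± 0.19 (SE), adjusted p = 4.23e-06. RPL11 was at 2.16, 0.941 and 0.949 RPKM, which overlapped its low values in the empty vector (log2 difference -0.83 ± 0.64 (SE), adjusted p = 0.268). It was called lower without empty vector replicate 3 (-1.48, adjusted p = 0.03). With the RPKM of its 4 annotated pseudogenes added, RPL11 was instead higher in the libraries labelled hPRM1 (3.46). The pseudogenes alone were at 92.5, 42.3 and 58.9 RPKM there and at 0, 7.50 and 0 RPKM in the empty vector.

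All 8 listed genes of the peptide exit tunnel and its rim fell, where 62.5% of all genes tested fell. Their median log2 difference was -4.29. RPL39, which lines the tunnel, went from 35284, 32754 and 36809 RPKM to 246, 283 and 205 RPKM. Its log2 difference of -7.16 ± 0.15 (SE), adjusted p = 1.68e-06, was the largest of the family, 143-fold between the means. RPL31, at the tunnel exit, went from 2091, 1769.7 and 1753 RPKM to 32.9, 15.6 and 19.02 RPKM (-6.38 ± 0.28 (SE), adjusted p = 5.39e-06). RPL17 (-5.37), RPL35 (-4.67), RPL26 (-3.91) and RPL4 (-3.29) came next, followed by RPL23A (-2.83), a docking site of the signal recognition particle. The smallest log2 difference of the 8 was that of RPL19 (-2.23), whose sign turned after median-of-ratios rescaling (0.28), while RPL39 (-4.65) and RPL31 (-3.91) stayed far below the empty vector. After that rescaling the median of the 8 was -1.90.

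At the decoding centre and the channel through which the mRNA passes, all 4 listed genes fell, where 62.5% of all genes tested fell. RPS23, which contacts the decoding site, had a log2 difference of -4.45 ± 0.21 and RPS2 one of -3.74 ± 0.18. RPS3, at the mRNA entry, had one of -2.89 ± 0.21 and RPS15 one of -2.56 ± 0.19. Only RPS23 (-1.95) and RPS2 (-1.23) were still called lower after median-of-ratios rescaling. RPS27A, which is made as a fusion with ubiquitin, fell from 8457, 8137 and 8657 RPKM to 505, 429.7 and 519 RPKM (-4.12 ± 0.13 (SE), adjusted p = 2.68e-06), and fell after that rescaling too (-1.61). FAU, which joins a ubiquitin-like protein to a protein of the small subunit and carries a name outside the family's rule, fell as well (-2.55, adjusted p = 1.9e-05).

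Of the 13 listed genes whose loss causes Diamond-Blackfan anaemia, 12 could be tested and 9 fell, a share near the 62.5% of all genes tested, with a median log2 difference of -3.42. RPL27 went from 21724, 21582 and 21668 RPKM to 355, 530.2 and 368 RPKM, a log2 difference of -5.72 ± 0.18. RPS24 (-5.36 ± 0.18), RPS29 (-3.52 ± 0.17), RPL15 (-3.32 ± 0.14) and RPS19 (-2.56 ± 0.21), the gene most often mutated in the disease, fell as well, RPS19 and RPL15 only before median-of-ratios rescaling. RPS7 fell by a less certain margin (-2.45 ± 0.83 (SE), adjusted p = 0.0308), which was lost without empty vector replicate 3 (-1.73, adjusted p = 0.068), without hPRM1 replicate 1 (-2.11, adjusted p = 0.089) or without hPRM1 replicate 3 (-2.06, adjusted p = 0.09). RPL35A and RPS10 did not pass the test, at -1.75 ± 0.96 (SE), adjusted p = 0.135, and -2.37 ± 1.08 (SE), adjusted p = 0.0809. RPS10 was called lower without empty vector replicate 2 (-3.63, adjusted p = 0.001). The read-through locus RPS10-NUDT3, which contains its exons, was at 1003, 811 and 1213 RPKM in the empty vector. It was at 75.3, 36.5 and 39.4 RPKM in the libraries labelled hPRM1. How reads were shared between the gene and this locus was not tested. RPL35A was at 126, 53.6 and 329.6 RPKM in the empty vector and 101, 10.03 and 52.7 RPKM in the libraries labelled hPRM1, and the groups overlapped.

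After RPL39 the largest falls were those of RPL36A, from 3089.9, 3042 and 2591 RPKM to 34.3, 18.02 and 21.5 RPKM (-6.87 ± 0.25 (SE), adjusted p = 3.72e-06), RPL31, RPS3A (-5.72) and RPL27. RPL36A sits near the exit site for spent tRNA, and RPS3A belongs to the platform of the small subunit. The smallest log2 difference was that of RPL28, at 460.4, 305 and 497 RPKM in the empty vector and 328, 324 and 294 RPKM in the libraries labelled hPRM1. These values overlapped (-0.38 ± 0.22 (SE), adjusted p = 0.142). After median-of-ratios rescaling RPL28 (2.12), RPLP2 (1.57), RPL27A (1.48) and RPL10 (1.10) were higher than in the empty vector. As deposited, RPL10, which helps to release the finished large subunit for translation, fell from 1673, 1162 and 2512 RPKM to 654, 673 and 597 RPKM (-1.40 ± 0.28 (SE), adjusted p = 0.00305). RPL27A fell too (log2 difference -1.02, adjusted p = 0.0241), a call lost without empty vector replicate 1 or 3 and without hPRM1 replicate 2 or 3 (adjusted p = 0.065, 0.062, 0.058 and 0.068).

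The small and the large subunit moved together. In the libraries labelled hPRM1, 42 of 46 large subunit genes fell with a median log2 difference of -3.26. Of the small subunit, 29 of 30 genes fell with a median of -3.56, where 62.5% of all genes tested fell. Within each library the median small subunit gene lay above the median large subunit gene, by 0.54, 0.65 and 1.05 on the log2 scale in empty vector replicates 1, 2 and 3. The same difference was 0.59, 1.01 and 1.06 in the libraries labelled hPRM1 and 0.63, 0.69 and 0.57 in hPRM2. The group means of 0.75 ± 0.27, 0.89 ± 0.26 and 0.63 ± 0.06 (SD, n = 3 each) differed by less than the spread within the first 2 groups.

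**Figure D2:**
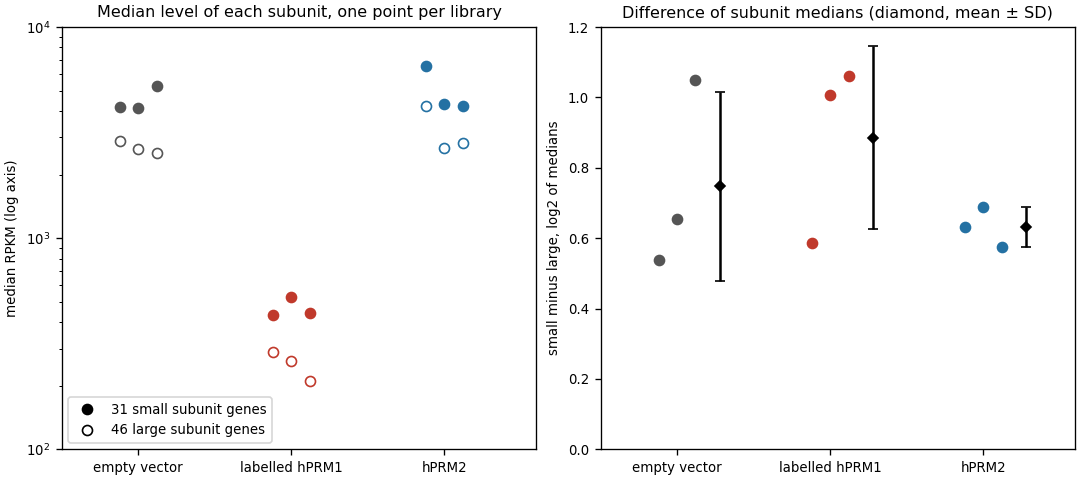
Left, median RPKM (log axis) of the 31 small (filled) and 46 large subunit genes (open) in each library. Right, the difference of the subunit medians of log2(RPKM + 1) in each library, with the group mean ± SD (n = 3) as a diamond. The medians drop together in the libraries labelled hPRM1, and the differences of 0.54 to 1.06 overlap between all groups.

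The members differed in how far they fell. When each library was centred on the median of the family, 24 genes lay further down and 18 genes less far down than the family as a whole in the libraries labelled hPRM1 (6.57% and 61.3% of all genes tested were lower and higher on this scale). RPL39 (-3.83), RPL36A (-3.55) and RPL31 (-3.05) stood lowest, and RPL28 (2.94) and RPLP2 (2.39) stood high. RPL11 was counted among the 18, but its levels in the empty vector left it no room to fall as far as the family, and its call was lost with a pseudocount of 0.1 (adjusted p = 0.079). The 24 genes were 15 of the large and 9 of the small subunit, and the 18 genes 14 and 4. Over the 77 genes, the log2 levels of any 2 empty vector libraries had a Pearson's r of 0.98, while the group means of the empty vector and of the libraries labelled hPRM1 had one of 0.84. Any 2 libraries labelled hPRM1 had one of 0.97 to 0.99, so the altered order was shared by the 3 libraries. These are descriptions across genes of the same libraries.

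The order of the falls went with the base composition of the coding sequence. This relation was looked for after the differences had been seen. The 25 tested genes with the lowest GC content (42.5% to 47.9%) had a median log2 difference of -4.67, the middle 26 one of -3.64 and the 25 with the highest GC content (54.2% to 63.4%) one of -2.25. Of the 24 genes that stood below the family, 15 were among the 25 of lowest GC content and 1 among the 25 of highest, and of the 18 above it, 1 and 13. The median GC content was 47.2% in the 24 and 56.3% in the 18. Over the 76 genes GC content and the log2 difference had a Pearson's r of 0.61 and a Spearman rho of 0.62, with r from 0.55 to 0.64 in the 3 libraries taken singly. It was 0.65 in the large and 0.57 in the small subunit, and 0.64 over the 70 genes of at least 100 RPKM in the empty vector. Over the other 11653 protein-coding genes tested r was 0.16, and over those 1352 of at least 100 RPKM it was 0.19. The length of the coding sequence gave an r of 0.08 over the members, and their level in the empty vector one of -0.26. In hPRM2 the r with GC content was -0.17.

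The first 120 coding bases of a pair of genes with large falls and a pair with small ones show this contrast, with each G and C in capitals (GENCODE 29, GRCh38, 5′ to 3′). The 4 genes were picked after their values were seen.
RPL39 (42.5% GC, log2 difference -7.16): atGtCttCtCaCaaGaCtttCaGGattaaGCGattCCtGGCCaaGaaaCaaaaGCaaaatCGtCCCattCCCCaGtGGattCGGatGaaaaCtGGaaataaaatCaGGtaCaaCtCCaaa
RPS3A (42.7% GC, log2 difference -5.72): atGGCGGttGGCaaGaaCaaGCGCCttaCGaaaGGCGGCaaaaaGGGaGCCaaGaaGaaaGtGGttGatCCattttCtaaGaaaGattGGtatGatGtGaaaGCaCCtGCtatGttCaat
RPLP2 (56.2% GC, log2 difference -0.94): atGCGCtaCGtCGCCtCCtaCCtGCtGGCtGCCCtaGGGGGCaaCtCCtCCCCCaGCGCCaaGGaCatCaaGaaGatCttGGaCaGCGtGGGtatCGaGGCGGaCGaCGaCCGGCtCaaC
RPS28 (62.3% GC, log2 difference -1.71): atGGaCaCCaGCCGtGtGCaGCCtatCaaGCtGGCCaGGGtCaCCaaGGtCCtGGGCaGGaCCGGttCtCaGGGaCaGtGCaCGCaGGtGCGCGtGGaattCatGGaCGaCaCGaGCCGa
The percentages are for the whole coding sequence, and the bases shown hold 40.8%, 44.2%, 63.3% and 62.5% G and C. The relation was weaker with the GC content of the whole transcript (r = 0.49) or of its last 300 bases (r = 0.39), which is where these libraries are read. RPL35 (57.2% GC, -4.67) and RPL35A (47.9% GC, -1.75) went against it.

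In the cells with hPRM2, no member of the family changed by the test. Of 77 genes tested 0 fell and 0 rose (limma), where 1.37% of all 13126 genes tested fell and 1.36% rose. At an unadjusted p under 0.05 there were 13 genes, and 7 in the per-gene test of the study's methods. The share of all genes at this unadjusted threshold was not counted, so whether 13 or 7 is many cannot be told. After adjustment the per-gene test called 0 genes of the family and 0 of all 13126 genes tested. The median log2 difference of the family was 0.24, against -0.72 over all genes tested, and its share of the summed protein-coding RPKM was 38.4% to 40.1%. RPLP0 was at 3569, 3417 and 3273 RPKM (0.41 ± 0.20 (SE), adjusted p = 0.236) and RPS6 at 4147, 5434 and 5057 RPKM (0.22 ± 0.19 (SE), adjusted p = 0.464). All 3 hPRM2 libraries lay above all empty vector libraries in 20 genes (26.0%, against 6.01% of all genes tested) and below them in 4 genes (5.2%, against 29.9%).

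The sign of the family's median in hPRM2 hung on the scale. After median-of-ratios rescaling it was 0.81, with 7 genes higher and 0 lower (1.63% and 0.442% of all genes), RPL35, RPL9, RPS27 and RPS27A among them. After quantile normalization it was -0.37, with 5 genes lower and 0 higher (0.533% and 2.61% of all genes). As deposited the lowest adjusted p was that of RPL35, at 6074, 6030.0 and 5603 RPKM in the empty vector and 9975, 10125 and 9607 RPKM in hPRM2. Its groups did not overlap, and its log2 difference was 0.75 ± 0.16 (SE), adjusted p = 0.059. RPL7A, of the large subunit, was at 8664, 8958 and 11271 RPKM and 7240.4, 3804 and 5454 RPKM (-0.85 ± 0.27 (SE), adjusted p = 0.124). On the scale centred on the family RPL7A was the 1 gene called, as lower (-1.09, adjusted p = 0.0463), where 1.1% of all genes were lower and 0.724% higher. This call held without hPRM2 replicate 1 (adjusted p = 0.018) and was lost without any of the other 5 libraries (adjusted p = 0.051 to 0.3) and with a pseudocount of 5 (adjusted p = 0.054).

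The largest log2 differences in hPRM2 were those of the genes with little signal, and replicate 1 stood apart from the others in several of them. RPL11 was at 398, 31.5 and 23.1 RPKM in hPRM2 replicates 1, 2 and 3, all above its values in the empty vector (4.06 ± 1.19 (SE), adjusted p = 0.107). RPS26 was at 171, 3.91 and 6.24 RPKM (3.83 ± 1.33 (SE), adjusted p = 0.144) and RPL35A at 2153, 495 and 305 RPKM (2.39 ± 0.89 (SE), adjusted p = 0.16). In these 3 genes replicate 1 was several-fold above the other two. RPS7 went the other way, with replicate 1 the lowest, at 53.7, 336 and 161 RPKM (3.40 ± 0.86 (SE), adjusted p = 0.081), and RPS10 was listed at 0, 29.6 and 21.1 RPKM (-1.38 ± 1.58 (SE), adjusted p = 0.588). The read-through locus RPS10-NUDT3 was at 2991, 1242 and 1129 RPKM in the same libraries, so the values of RPS10 alone are uncertain. RPL26 was at 641, 398 and 193 RPKM (2.25 ± 0.54 (SE), adjusted p = 0.0725), all above the empty vector.

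Replicate 1 was at least 2-fold above the mean of replicates 2 and 3 in 18 of the 77 genes, and at or below 0.5 times that mean in 3. Its levels had a Pearson's r of 0.85 and 0.87 with those of replicates 2 and 3, which had one of 0.99 with each other. It was also the hPRM2 library with the most reads, an estimated 2660000 against 1270000 and 1600000. Without it, RPS7 (4.09, adjusted p = 0.03) and RPL26 were called higher and RPL7A lower (-1.07, adjusted p = 0.031), where 5.3% of all genes were higher and 12.3% lower. In a fit of all 9 libraries RPL11, RPL26 and RPS7 were called higher (3.86% of all genes were).

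**Figure D3:**
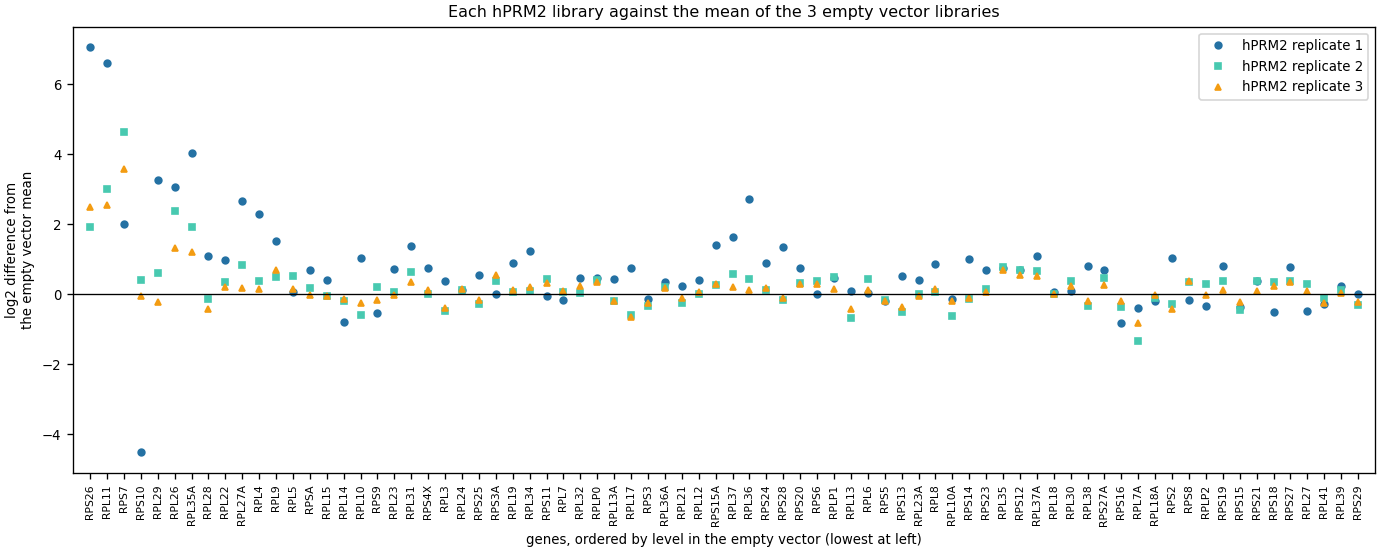
Difference of each hPRM2 library from the mean of the 3 empty vector libraries on the log2(RPKM + 1) scale, for 76 of the 77 genes ordered by their level in the empty vector. Most points lie near 0, and the wide spread at the left, with replicate 1 (circles) high for RPS26, RPL11 and RPL35A and low for RPS10, belongs to the genes with the least signal.

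Compared directly with hPRM2, the libraries labelled hPRM1 were lower in 74 of the 77 genes and higher in 0 (limma), where 37% of all 11756 genes tested were lower and 16% higher. The median log2 difference of the family was -3.86, against -0.97 over all genes. The 3 genes not called were RPL28 (-0.56), RPLP2 (-0.92) and RPS10 (-0.99), of which RPS10 was called lower without hPRM2 replicate 1 (-2.56, adjusted p = 0.0087). The lowest were RPL39 (-7.29), RPL31 (-7.17), RPL36A (-7.12), RPL9 (-6.42) and RPL26 (-6.16). After median-of-ratios rescaling 49 genes were lower and 2, RPL28 and RPLP2, higher (18.5% and 30.8% of all genes). With globins left out of the scaling 35 were lower and 5 higher (12.5% and 40.9%), and after quantile normalization 41 and 3 (26.4% and 24.6%). In 75 genes every library labelled hPRM1 lay below every hPRM2 library, as in 43.1% of all genes tested. This comparison and the one with the empty vector share the libraries labelled hPRM1.

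Other genes of the translation machinery with TOP messengers, such as elongation factors and eIF3 subunits, were counted from a list of 20. In hPRM2 0 of the 20 changed, where 1.37% of all genes tested fell and 1.36% rose. Their median log2 difference there was -0.08, against -0.72 over all genes tested. In the libraries labelled hPRM1, 18 of the 20 fell and 0 rose, where 62.5% of all genes fell and 12.9% rose. Their median log2 difference there was -2.92. NPM1, a nucleolar assembly factor, had the largest fall (-5.86), and EEF1A1, the main elongation factor, fell by 2.81 on the log2 scale. The genes not called were EEF1D (-0.96) and EIF2S3 (-0.90). After median-of-ratios rescaling the median of the 20 in the libraries labelled hPRM1 was -0.46, against -0.84 for the ribosomal protein genes.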

How the data were processed

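RNA of 9 libraries was sequenced from its 3′ ends. Per the labels, FastQC, cutadapt, STAR, Salmon and hg38 were named in the submitters' processing notes, and the annotation was not given in the sources used here. The authors deposited RPKM (gene counts divided by total counts and by gene length) after removing mitochondrial genes. No counts were used, and reads per library were estimated from the steps between low values. Coordinates and coding sequences were taken from GENCODE 29.

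RPKM were compared as log2(RPKM + 1) with limma 3.58.1 (R 4.3.3, trend and robust), for genes with 1 RPKM or more in 3 or more of the 6 libraries compared. Since 1 is added, the log2 difference understates the change of low genes. P-values were adjusted by the Benjamini-Hochberg method over all genes tested, and a call needed an adjusted p of at most 0.05 and a 2-fold difference. Simulated data took the empty vector means, the estimated reads of each library and the same small spread for every gene. Of 100 genes changed 4-fold, drawn away from the lowest levels, 100% were recovered at the read numbers of the hPRM1 comparison. There were 0 false calls among the unchanged of the 14280 genes. At the read numbers of hPRM2, 99% were recovered with 1 false call. The simulation held neither the blood cell content of the libraries labelled hPRM1 nor the spread of the hPRM2 replicates. Its recovery therefore does not carry over to the real comparisons. Alternatives were other pseudocounts (0.1 and 5), filters, scalings, a model over all 9 libraries and blocking by replicate number. Further alternatives added pseudogene values to their genes or left out each library in turn. A per-gene t-test was also run, modelled on that of the study's methods. It used log2(RPKM + 1) and the filter above, which those methods do not state. Tables and plots were made with pandas 2.3.3, SciPy 1.17.1 and matplotlib 3.10.9 under Python 3.11.15.

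The members and the gene lists were chosen with earlier results of these data known. Genes were named if they were markers or members of a role list, had the 5 largest differences in either direction of a comparison, were among the highest or lowest in level, or were not called lower in the libraries labelled hPRM1. Values of some genes are not reported here, and the plots by gene leave out 1 member.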

Additional observations from a re-analysis of the deposited data

Results flagged for a closer look

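The libraries labelled hPRM1 and the hPRM2 libraries differed from each other by the direct test (limma). In the libraries labelled hPRM1, 74 of the 77 genes were lower, where 37% of all genes tested were. The largest differences on the log2 scale were those of RPL39 (-7.29), RPL31 (-7.17), RPL36A (-7.12), RPL9 (-6.42) and RPL26 (-6.16). The libraries labelled hPRM1 also held the blood cell genes and lacked the HEK293T markers described above, and the part of this in the differences was not tested.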

How the results depend on the processing

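The calls against the libraries labelled hPRM1 depended on the scaling. For hPRM1 against the empty vector, 35 genes were lower and 4 higher (median -0.84) after median-of-ratios rescaling, 43 and 2 (median -1.39) after quantile normalization, and 31 and 5 (median -0.57) with globins left out of the scaling, a choice made after seeing the data. For hPRM1 against hPRM2 the same settings gave 49 and 2 (-1.92), 41 and 3 (-1.62), and 35 and 5 (-1.08), and a pseudocount of 5 gave a median of -3.63. For hPRM2 against the empty vector, median-of-ratios rescaling gave 7 higher genes (median 0.81), quantile normalization 5 lower (median -0.37) and the fit of all 9 libraries 3 higher. Adding pseudogene values made 1 gene higher in the libraries labelled hPRM1, RPL11 (3.46).

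The sign of named genes turned, with a call on at least 1 of the scales, in the following cases. For hPRM1 against the empty vector, median-of-ratios rescaling gave RPL10 1.10, RPL14 0.54, RPL19 0.28, RPL27A 1.48, RPL28 2.12, RPL29 0.17, RPLP1 0.0048 and RPLP2 1.57. Quantile normalization gave RPL10 0.58, RPL14 0.067, RPL27A 0.88, RPL28 1.53 and RPLP2 1.24. Leaving out globins gave RPL10 1.37, RPL14 0.81, RPL19 0.55, RPL27A 1.75, RPL28 2.39, RPL29 0.44, RPLP1 0.27, RPLP2 1.84, RPS15 0.22, RPS16 0.25 and RPS19 0.22. For hPRM1 against hPRM2, the first of these gave RPL10 0.46, RPL14 0.35, RPL28 1.38 and RPLP2 1.03, the second RPL10 0.98, RPL14 0.75, RPL28 1.58 and RPLP2 1.96, and the third RPL10 1.30, RPL14 1.18, RPL28 2.21 and RPLP2 1.86. Without a call on either scale, RPL11 (0.79, 0.46 and 1.24) and RPL35A (0.71, 0.04 and 0.98) turned in hPRM1 against the empty vector under the same 3 settings, RPS10 turned there with globins left out (0.051) and against hPRM2 under the first and the third (0.43 and 1.43), and in hPRM2 against the empty vector 9 named genes turned under the first and 18 under the second.

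With 1 library left out at a time, 69 to 73 genes were lower and 0 higher in the libraries labelled hPRM1 (median -3.43 to -3.29), 0 to 1 lower and 0 to 2 higher in hPRM2 (median 0.14 to 0.28), and 70 to 74 lower in the direct comparison (median -3.99 to -3.53). Of all 10512 to 12430 genes tested in these fits, 5606 to 8478 were lower in the libraries labelled hPRM1. In hPRM2, 0 to 1577 of all 11983 to 12825 genes were lower and 5 to 680 higher. In the direct comparison 2912 to 4352 of all 9926 to 10357 genes were lower. On the scale centred on the family, with 1 library left out, 0 to 1 gene was lower and 0 to 2 higher in hPRM2. That 1 gene, RPL7A, was not called with a pseudocount of 5 (0 genes).

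Libraries with the same number did not deviate together (correlations of -0.078 to 0.080). With 3 libraries a group this cannot show whether the samples were paired, and the labels do not say. With a replicate block, 73 genes were lower in the libraries labelled hPRM1 (8551 of all 13588 genes tested). In hPRM2 0 were lower and 0 higher (8 and 49 of all 13126 genes tested). In the direct comparison 74 were lower (4019 of all 11756 genes tested). With this block, 0 genes in hPRM2 were called lower on the scale centred on the family. The cause of these shifts was not tested. Values of a few RPKM rest on few reads, and those of the genes under 100 RPKM in the empty vector are uncertain for the reason given above.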
